A study of Mus musculus with 8 samples.

Results

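The genes described here are the potassium channel subunits of the mouse dentate gyrus, taken as the 92 of 31058 listed genes and elements whose symbol is Kcn followed by letters and a number. By family they are 40 voltage-gated alpha subunits, 8 calcium- or sodium-activated channels, 15 inward rectifiers, 14 tandem-pore channels and 15 auxiliary subunits. The symbol rule used no measured value. Their levels were compared between marker-gated cell types and between ages.

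Potassium channels let potassium leave or enter the cell down its gradient and thereby set the resting membrane potential and end action potentials. Inward rectifiers and tandem-pore channels carry the background current of resting cells, voltage-gated channels open on depolarization, and calcium-activated channels couple the potential to intracellular calcium. In the brain, astrocytes take up the potassium that active neurons release, and in small vessels the channels of mural cells, that is pericytes and smooth muscle cells, bear on vessel tone. Auxiliary subunits open no pore of their own and change the gating or the transport of the pore-forming subunits.

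Mice were heterozygous for Ki67-creERT2, a tdTomato cre-reporter and Nestin-GFP on a C57BL/6J/CD1 mixed background, so that every group carried the same alleles, and all had received tamoxifen for 6 days and were culled on day 8. Cells of the dissociated dentate gyrus were sorted on GFP and tdTomato and measured by droplet 3′ RNA sequencing in 8 libraries from 7 experiments, 1 at 1 month, 3 at 2 months and 3 at 6 months, for which the series text gives a range of 6 to 8 months. Each experiment pooled several male and female mice, the Cre is expressed in dividing cells only, and the GFP gate decides which cells were seen at all. The 2-month samples used chemistry version 2 and those of the other ages version 3, so that the 2-month age and the chemistry cannot be told apart. The first experiment at 2 months was sequenced as a pair of libraries, which were summed here, and the label of one of them also names cells negative for both reporters.

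Libraries held between 4861883 and 43826338 UMIs (unique molecular identifiers, each counting a single transcript molecule). Of 26036 barcodes, 24376 had more than 500 genes and less than 10% mitochondrial UMIs, and 19559 of these were placed by marker genes in a cell type, named "-like" because the markers alone define it. They were 1361 NSC-like (neural stem cell), 1345 astrocyte-like, 845 IPC-like (intermediate progenitor cell), 1985 neuroblast-like, 5235 OPC-like (oligodendrocyte precursor cell), 213 newly formed OL-like (oligodendrocyte), 6595 oligodendrocyte-like, 886 mural-like, 397 endothelial-like and 697 microglia-like cells. No potassium channel gene was among the markers. Each type was carried by 7 experiments with at least 10 cells, except newly formed OL-like cells with 4 and microglia-like cells with 2, and 651 of the microglia-like cells came from the first experiment at 2 months. NSC-like cells had NSC markers at a summed 8531 CPM and astrocyte markers at 551 CPM, and astrocyte-like cells had 4037 CPM of astrocyte and 2554 CPM of NSC markers, so that the gate left some overlap between this pair. Of 3638 cells with the markers that both share, 826 lay within 1 marker of the other type and stayed unassigned. In all, 59 barcode sequences occurred in more than 1 library, 51 of them among the cells kept. Levels are CPM, counts per 1000000 UMIs summed over the cells of a type in an experiment, given as mean ± SD over experiments. A 3′ method tags each molecule near its end, so that CPM is not scaled by transcript length and levels of different genes are set side by side on this tag-count scale only.

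The pore of every potassium channel holds a short selectivity filter. Its coding bases are shown for several leading channels of the cell types, among which the fourth codon of the filter differs. All 77 pore-forming subunits held a match to the filter pattern, 62 of them 1 match and 15 a pair. The 15 are the 14 tandem-pore channels, which carry 2 pore domains in each chain, and Kcnh6, a voltage-gated subunit with 1 pore domain, so that a match to the pattern is not always a filter. The stretches run 5′ to 3′ on the coding strand of GENCODE M21 transcripts (GRCm38), with the 5 filter codons in capitals.
Kcnj16: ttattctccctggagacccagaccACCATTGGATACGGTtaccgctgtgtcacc
Kcnj8: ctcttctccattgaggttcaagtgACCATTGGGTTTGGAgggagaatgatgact
Kcnj11: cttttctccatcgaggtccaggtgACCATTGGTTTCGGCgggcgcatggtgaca
Kcna1: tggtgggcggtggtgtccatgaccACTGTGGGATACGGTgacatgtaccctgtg
Kcna2: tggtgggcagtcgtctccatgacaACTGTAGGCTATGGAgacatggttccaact
Kcnk1, first pore: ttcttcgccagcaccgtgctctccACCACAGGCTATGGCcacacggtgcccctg
Kcnk1, second pore: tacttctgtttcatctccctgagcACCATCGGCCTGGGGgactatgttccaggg
Kcnk2, first pore: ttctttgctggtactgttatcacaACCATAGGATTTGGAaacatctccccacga
Kcnk2, second pore: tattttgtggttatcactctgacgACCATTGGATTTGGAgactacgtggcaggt
Kcnk13, first pore: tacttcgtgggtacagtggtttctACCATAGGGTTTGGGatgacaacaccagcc
Kcnk13, second pore: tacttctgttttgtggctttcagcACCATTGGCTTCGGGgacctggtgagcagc

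Among the 15 inward rectifiers the fourth codon was TAC in 5, TAT in 8, TTC in 1 and TTT in 1, and the last pair are Kcnj11 and Kcnj8, the pore subunits of ATP-sensitive channels. In the second pore of the 14 tandem-pore channels it was TTC in 6, TTT in 5, CTA in 2 and CTG in 1, the CTG being that of Kcnk1. TAC and TAT encode the same amino acid, as do TTC and TTT, and CTA and CTG. The whole stretch shown for Kcnj8 lies in an exon at chr6:142566433-142566486 (minus strand) and that for Kcna1 at chr6:126642213-126642266 (minus strand). The stretch shown for the second pore of Kcnk1 lies at chr8:126025305-126025358 (plus strand). The stretches shown for the first pores of Kcnk1, Kcnk2 and Kcnk13 and the second pore of Kcnk2 are split by an intron. Kcnk1 is overlapped on the other strand by the gene model Gm45875. Some members lie side by side in the genome. Kcnj8 and Abcc9, which encodes the sulfonylurea receptor that joins Kcnj8 in the channel, are neighbouring genes on the minus strand of chromosome 6 with 16247 bases between them, and Kcna1 and Kcna6 are neighbours on chromosome 6 with 61944 bases between them.

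Of the 92 subunits, 43 reached a mean of 10 CPM in at least 1 cell type and 49 in none. Kcnk15, Kcnk16, Kcnj1, Kcng3 and Kcnk18 had 0 UMIs in the gated cells. Taking the type with the highest mean for each of the 43, 12 peaked in OPC-like, 7 in mural-like, 5 in astrocyte-like and 5 in neuroblast-like cells, 4 each in oligodendrocyte-like and microglia-like cells, and 3 each in NSC-like and newly formed OL-like cells, while 0 peaked in IPC-like or endothelial-like cells. The same tally over all genes was not made. Kcnip3, a calcium-binding auxiliary protein of Kv4 channels also known as a transcriptional repressor, was the most widely seen, with 10 CPM or more in 7 of the 10 types. Kcnj10, the Kir4.1 inward rectifier of glia, followed with 6 types.

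**Figure D1:**
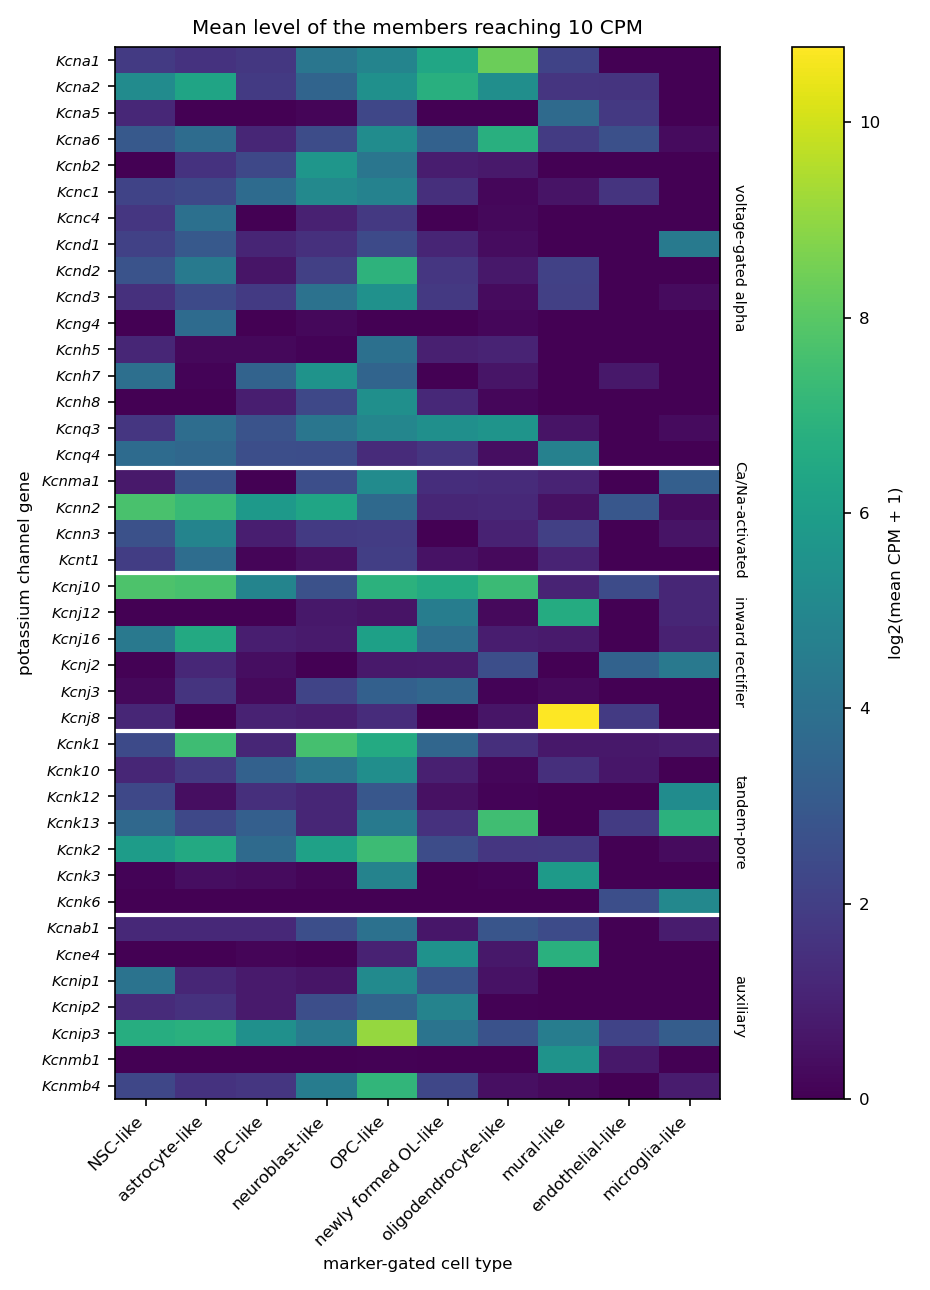
Mean level of the subunits described here that reached 10 CPM (rows, grouped by family) in the 10 marker-gated cell types (columns), as log2(mean CPM + 1) over experiments. The brightest cell is Kcnj8 in mural-like cells, and the OPC-like column holds the most subunits, 27 at 10 CPM or more.

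Summed over all 92 genes, potassium channel transcripts were most abundant in mural-like (2198 ± 379 CPM, n = 7) and OPC-like cells (1915 ± 136, n = 7). Astrocyte-like (1115 ± 127), oligodendrocyte-like (911 ± 96.0), NSC-like (851 ± 114) and neuroblast-like cells (749 ± 40.9) followed, n = 7 each. IPC-like cells held 263 ± 36.6 CPM and endothelial-like cells 73.7 ± 13.0 CPM (n = 7 each). Microglia-like cells held 280 and 292 CPM in their 2 experiments. The sums of NSC-like (703 to 986 CPM) and oligodendrocyte-like cells (806 to 1040 CPM) overlapped. Both also overlapped those of astrocyte-like (874 to 1222 CPM) and neuroblast-like cells (686 to 813 CPM). The sums of OPC-like (1807 to 2173 CPM) and mural-like cells (1620 to 2693 CPM) overlapped as well. A single gene, Kcnj8, made up 79.5% of the mural-like sum, whereas voltage-gated alpha subunits made up 58.7% in oligodendrocyte-like cells and auxiliary subunits 38.8% in OPC-like cells. In neuroblast-like cells tandem-pore channels made up 37.5% and voltage-gated alpha subunits 36.2%, and in NSC-like cells inward rectifiers made up 28.3% and calcium- or sodium-activated channels 25.7%, with overlapping ranges in both.

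**Figure D2:**
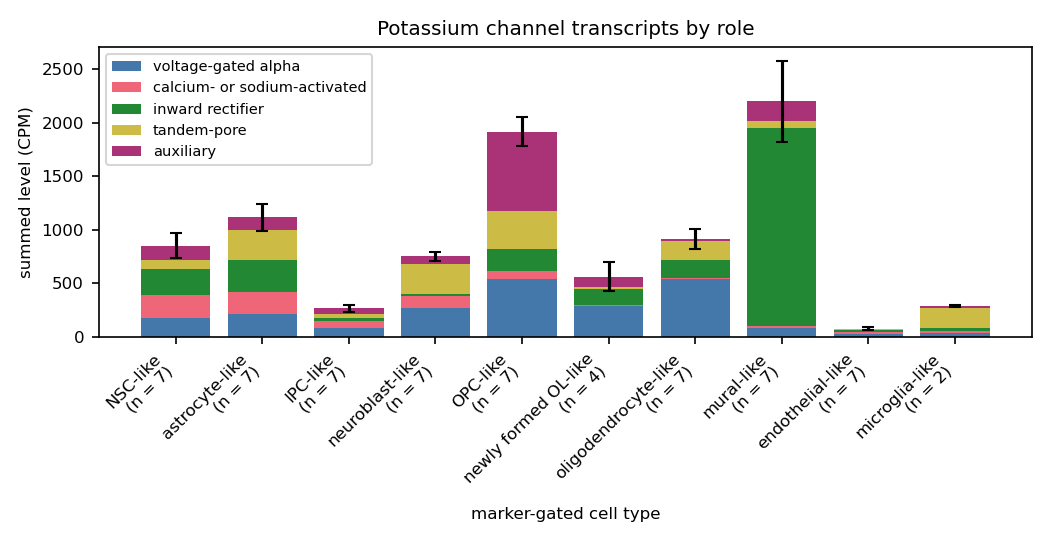
Summed level (CPM) of all 92 subunits in each cell type, stacked by family, with whiskers for the SD of the total over the n experiments named under each bar. Inward rectifiers fill most of the mural-like bar (84.2%), and the endothelial-like bar is the shortest at 73.7 CPM.

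NSC-like cells were led by Kcnj10, Kcnn2 and Kcnip3, which together made up 62.2% of their subunit transcripts. Kcnj10 ranged from 125 to 348 CPM over the 7 experiments, with a median of 203 (mean 218 ± 73.3). Kcnn2, the SK2 calcium-activated channel, ranged from 143 to 355 CPM with a median of 192 (206 ± 73.9), and the ranges of this leading pair overlapped. Kcnip3 followed at 105 ± 22.6 CPM, from 68.7 to 141. Then came Kcnk2, the mechanosensitive TREK-1 tandem-pore channel, at 60.9 ± 17.1 CPM (n = 7).

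Astrocyte-like cells shared Kcnj10 with NSC-like cells and differed from them above all in Kcnk1, which encodes the TWIK-1 tandem-pore channel. Kcnk1 lay between 125 and 206 CPM in astrocyte-like cells, with a median of 183, and between 0 and 10.9 CPM in NSC-like cells, with a median of 5.22 and 13 UMIs over the 7 experiments. No experiment of either type reached the range of the other, and the difference was a log2 fold change of -6.24 ± 0.29 (SE; edgeR adjusted p = 1.5e-15). Kcnj16, the Kir5.1 subunit that pairs with Kcnj10, was also lower in NSC-like cells, with a median of 19.9 CPM (5.44 to 34.6) against 87.4 (55.5 to 163), again without overlap (log2 fold change -2.16 ± 0.20, adjusted p = 3.4e-12). Kcnj10 itself had a mean of 218 CPM in NSC-like and 199 ± 55.2 CPM in astrocyte-like cells, a log2 difference of 0.16 ± 0.11 that did not pass the test (adjusted p = 0.21).

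After the filter on low counts 7 of 92 subunits were tested between NSC-like and astrocyte-like cells. Of these, 1 was higher and 4 were lower in NSC-like cells, where 31.2% of all genes tested were higher and 18.1% lower (49.3% in either direction). Kcnk1, with 13 UMIs in NSC-like cells, passed the filter through its astrocyte-like counts and could only be lower. The median log2 fold change of all genes was 0.16, and with TMM scaling it was 0.04, with 1 subunit higher and 5 lower. Kcna2, a voltage-gated Kv1 channel, was lower at 35.7 ± 15 against 76.3 ± 23.9 CPM (log2 fold change -0.98 ± 0.16, adjusted p = 1.7e-06), in 7 of 7 experiments. Kcnk2 was lower in 5 of 7 experiments (log2 fold change -0.80 ± 0.16, adjusted p = 7.8e-05). Kcnn2 was the member that was higher in NSC-like cells, in 7 of 7 experiments, at 206 against 150 ± 28.6 CPM (log2 fold change 0.44 ± 0.11, adjusted p = 0.001), but its call was lost with DESeq2 (adjusted p = 0.063) and without the experiment as a block (adjusted p = 0.1). Among the 29 potassium-handling partner genes, 11 were tested, with 2 higher and 6 lower in NSC-like cells. Fxyd1, a small regulator of the sodium pump, was among the lower ones at 562 ± 176 against 917 ± 120 CPM (log2 fold change -0.78 ± 0.09, adjusted p = 1.8e-09).

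IPC-like cells held the lowest mean subunit sum of the neural and glial types, with a range (219 to 325 CPM) that overlapped that of microglia-like cells. The IPC-like cells had a median of 8381 UMIs per cell against 4196 in NSC-like cells, and CPM is a share of those UMIs. The leading subunits of IPC-like cells were those of NSC-like cells at lower levels, Kcnn2 at 54.1 ± 16.9 CPM (30.0 to 82.3), Kcnip3 at 42.0 ± 9.62 CPM (26.6 to 53.3) and Kcnj10 at 28 ± 7.55 CPM (11.1 to 32.4). IPC-like cells also held NSC markers at 1651 CPM and cycling markers at 3655 CPM, against 8531 and 72.4 CPM in NSC-like cells. The part of stem-like or dividing cells in these levels was not tested. Between IPC-like and NSC-like cells 6 of 92 subunits were tested and all 6 were lower, where 30% of all genes tested were lower and 40.4% higher (70.5% in either direction). Kcnj10 fell by 2.89 ± 0.13 on the log2 scale (adjusted p = 2.8e-22) and Kcnk2 by 2.46 ± 0.20 (adjusted p = 2.7e-14), each in 7 of 7 experiments and without overlap of the ranges. Kcnn2 fell by 1.86 ± 0.12 (adjusted p = 1.2e-17) and Kcnip3 by 1.30 ± 0.14 (adjusted p = 8.8e-11). Of 11 partner genes tested, 8 were lower and 2 higher. Fxyd1 was at 18.9 ± 8.27 against 562 ± 176 CPM (log2 fold change -4.76 ± 0.14, adjusted p = 3.3e-25), and Fxyd6, another, was higher at 345 ± 70.7 against 55 ± 51.3 CPM (2.68 ± 0.40, adjusted p = 0.00076).

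Neuroblast-like cells held another set, led by Kcnk1, Kcnn2 and Kcnk2. Kcnk1 lay between 156 and 228 CPM with a median of 190, whereas in IPC-like cells it lay between 0 and 4.45 CPM with a median of 0.616 and 5 UMIs in all. The log2 fold change was 8.06 ± 0.23 (adjusted p = 4.2e-22). Kcnk1 was thus high in astrocyte-like and neuroblast-like cells and near 0 in the NSC-like and IPC-like cells, and the means of 173 ± 33.9 and 190 ± 26.1 CPM of the high pair had overlapping ranges. Of 92 subunits, 15 were tested between neuroblast-like and IPC-like cells, of which 13 were higher and 2 lower, where 34.5% of all genes tested were higher and 30.9% lower (65.5% in either direction). Those higher were 8 voltage-gated alpha subunits, 3 tandem-pore channels, Kcnn2 and Kcnmb4. Among them Kcnk1 and Kcna1, with 5 and 6 UMIs in IPC-like cells, passed the filter through their neuroblast-like counts and could only be higher.

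Of the voltage-gated subunits, Kcna1, an axonal Kv1 channel, was at 17.7 ± 7.91 CPM in neuroblast-like against 2.32 ± 4.50 CPM in IPC-like cells with overlapping ranges (log2 fold change 4.07 ± 0.51, adjusted p = 4.4e-07), and oligodendrocyte markers, which mark the type where Kcna1 is highest, ranged from 0.513 to 396 CPM over the neuroblast-like sums. Their part in this difference was not tested. Kcnb2, a delayed rectifier, was at 49.8 ± 6.50 against 4.07 ± 2.61 CPM (3.20 ± 0.20, adjusted p = 2.5e-15). Kcnk2 was at 71.3 ± 8.38 against 12.4 ± 5.05 CPM (2.69 ± 0.15, adjusted p = 7.9e-17), and Kcnmb4, the neuronal beta subunit of the BK channel, at 22.1 ± 4.72 against 2.27 ± 1.77 CPM (2.86 ± 0.27, adjusted p = 4.2e-11). Its pore subunit Kcnma1 was at 5.07 ± 2.88 CPM in neuroblast-like cells and had 0 UMIs in IPC-like cells, and it was not tested. Kcnj10 and Kcnip3 were the members that were lower, Kcnj10 at 5.45 ± 5.42 CPM (log2 fold change -2.83 ± 0.33, adjusted p = 3.2e-06) and Kcnip3 at 21.1 ± 5.44 CPM (-1.15 ± 0.15, adjusted p = 5.7e-08). Among 16 partner genes tested, 6 were higher and 4 lower. Ank3, the ankyrin that anchors channels at the axon initial segment, was at 214 ± 50.7 against 4.53 ± 3.59 CPM (log2 fold change 6.13 ± 0.18, adjusted p = 8.3e-21). Kcnj11, the other ATP-sensitive pore subunit, was highest in neuroblast-like cells at 7.85 ± 1.88 CPM (4.79 to 10.0) and had 0 UMIs in mural-like cells, where Kcnj8 was highest. It was not tested.

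**Figure D3:**
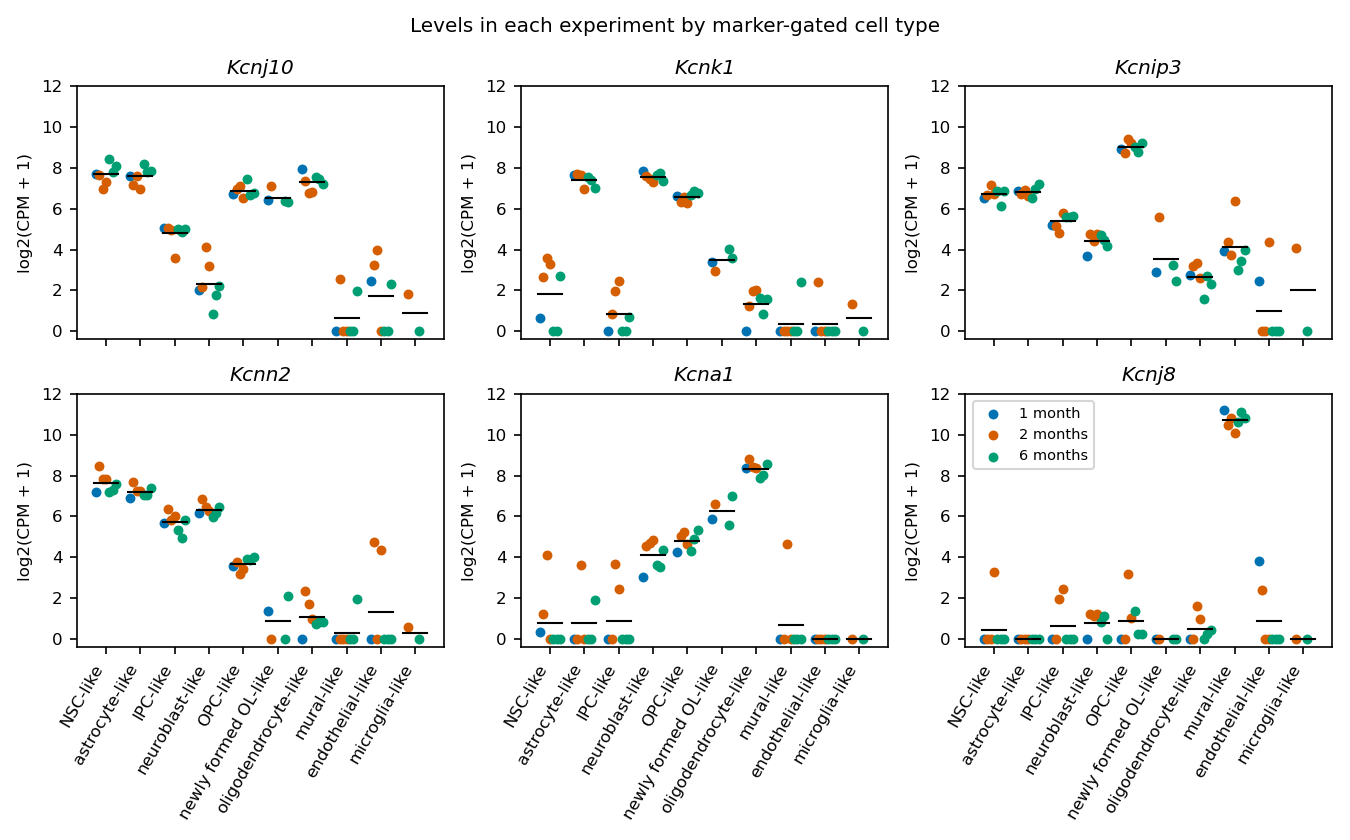
Level of 6 subunits in each experiment, as log2(CPM + 1), in the 10 cell types, coloured by age, with a black line at the mean of the log values. Kcnk1 is high in astrocyte-like, neuroblast-like and OPC-like cells and low in NSC-like and IPC-like cells, and Kcnj8 is high in mural-like cells, where it lies between 1080 and 2331 CPM.

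OPC-like cells had the most subunits at 10 CPM or more, 27 against 12 in NSC-like cells. How many of all genes reached that level in each type was not counted, so the difference may not be particular to these subunits. Kcnip3 led with a median of 508 CPM (421 to 676), followed by Kcnk2 with a median of 167 (141 to 184) and Kcnmb4 with a median of 132 (115 to 163). Kcnip3 stood clear of the other leaders in every experiment, whereas the ranges of Kcnk2 and Kcnmb4 overlapped. Kcnd2, the Kv4.2 A-type channel that Kcnip3 and Dpp6 modulate, was at 123 ± 13.7 CPM. Between OPC-like and NSC-like cells 22 of 92 subunits were tested, of which 18 were higher and 2 lower, where 53.7% of all genes tested were higher and 18% lower (71.7% in either direction). Several of those higher were nearly absent from NSC-like cells, such as Kcnh8, Kcnk3, Kcna1 and Kcnma1 with 0, 2, 5 and 5 UMIs there. Such subunits passed the filter through their OPC-like counts and could only be higher. The median log2 fold change of all genes was 0.37, and it was 0.08 with TMM scaling, which counted 17 subunits higher and 3 lower.

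Kcnh8, an Elk-type voltage-gated channel, was at 39.9 ± 14.2 CPM in OPC-like cells (20.5 to 52.6) and had 0 UMIs in NSC-like cells, which makes its mean at least 81.1-fold higher against a floor of 3 UMIs over the NSC-like group (at least 103-fold with the UMIs of all experiments pooled, adjusted p = 1.5e-17). Kcnk3, the acid-sensitive TASK-1 channel, was at 27.1 ± 7.78 CPM with 2 UMIs in NSC-like cells. With the UMIs of all experiments pooled the ratio was 102, with a 95% counting interval from 28.1 to 840, and the ratio of the means over experiments was 338 (adjusted p = 1.1e-15). Kcnmb4 was at 137 ± 18.9 against 3.85 ± 6.08 CPM (log2 fold change 6.02 ± 0.22, adjusted p = 6.3e-25), Kcnma1 at 35.9 ± 11.5 against 0.667 ± 1.06 CPM (5.43 ± 0.34, adjusted p = 2.1e-17) and Kcnk1 at 95.7 ± 14.2 against 4.42 ± 4.39 CPM (5.42 ± 0.30, adjusted p = 5.8e-13). Kcnma1 and Kcnmb4, the pore and beta subunits of the BK channel, were thus both higher in OPC-like cells. Kcnd2 was higher by a log2 fold change of 4.66 ± 0.19 (adjusted p = 2.2e-23), Kcnip3 by 2.33 ± 0.08 (adjusted p = 3.8e-25) and Kcna1 by 4.78 ± 0.41 (adjusted p = 7.2e-13). Of the 5 Kcna1 UMIs in NSC-like cells, 3 came from the second experiment at 2 months, and oligodendrocyte markers ranged from 4.20 to 549 CPM over the NSC-like sums. Their part in those UMIs was not tested. Kcnn2 was lower at 12 ± 2.51 against 206 CPM (log2 fold change -3.82 ± 0.13, adjusted p = 6e-26) and Kcnj10 at 120 ± 27.5 against 218 CPM (-0.97 ± 0.10, adjusted p = 3.7e-11). Dpp6 and Dpp10, auxiliary proteins of Kv4 channels on the partner list, were higher too, Dpp6 at 232 ± 89.9 against 5.20 ± 5.68 CPM (log2 fold change 6.45 ± 0.20, adjusted p = 9.7e-25) and Dpp10 at 46.1 ± 8.00 CPM with 2 UMIs in NSC-like cells. Of 18 partner genes tested, 9 were higher and 6 lower.

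Oligodendrocyte-like cells kept few of these subunits and were led by Kcna1, Kcnk13 and Kcnj10, which made up 73.1% of the sum. Kcna1 had a median of 328 CPM (234 to 441) against 28.3 ± 8.48 CPM in OPC-like cells, a log2 fold change of 3.47 ± 0.11 (adjusted p = 9.4e-19). Kcnk13, the THIK-1 tandem-pore channel, had a median of 170 CPM (157 to 201) against 19.9 ± 5.25 CPM (3.01 ± 0.12, adjusted p = 4.2e-17), and Kcna6, the Kv1 neighbour of Kcna1, was at 109 ± 16.2 against 36.7 ± 6.18 CPM (1.66 ± 0.12, adjusted p = 4e-12). Kcna1, Kcnk13 and Kcna6 were higher in 7 of 7 experiments without overlap. Kcnq3 (log2 fold change 0.70 ± 0.12, adjusted p = 1e-05) and Kcnj10 (0.45 ± 0.11, adjusted p = 0.0012) were higher in 6 of 7 experiments each. Kcna2 was at 39.2 ± 17.6 against 41.6 ± 14.1 CPM, with overlapping ranges. In newly formed OL-like cells, which 4 experiments carried, Kcna2 led at 111 ± 41.5 CPM (59.4 to 157) with Kcnj10 at 94.7 ± 27.8 and Kcna1 at 81.9 ± 36.7 CPM, and the 3 ranges overlapped.

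Most of the subunits tested were lower than in OPC-like cells. Of 33 subunits tested, 5 were higher and 26 lower in oligodendrocyte-like cells, where 16.7% of all genes tested were higher and 66.9% lower (83.7% in either direction) and their median log2 fold change was -0.68. With TMM scaling that median was -0.04 and the subunits numbered 7 higher and 25 lower. Kcnmb4 fell by 8.62 ± 0.21 on the log2 scale (adjusted p = 7.2e-21), from 137 to 0.364 ± 0.369 CPM. Kcnh8 fell by 7.64 ± 0.25 (adjusted p = 1.8e-18), Kcnk10, a relative of Kcnk2, by 7.61 ± 0.28 (adjusted p = 1.3e-17) and Kcnd2 by 7.60 ± 0.18 (adjusted p = 5.2e-21). Kcnc1, a Kv3 channel, fell by 7.40 ± 0.37 (adjusted p = 2.2e-14). Kcnk3 had 3 UMIs in oligodendrocyte-like cells, and its level in OPC-like cells was 352 times as high with the UMIs of all experiments pooled, with a 95% counting interval from 120.0 to 1707 (adjusted p = 4.6e-17). Kcnip3 fell by 6.72 ± 0.22 (adjusted p = 1.5e-10), to 5.63 ± 2.38 CPM. Of the 15 auxiliary subunits 6 were tested, and all 6 were lower. Kcnip2, Kcnab3, Kcnip1 and Kcnmb4 had 3, 4, 7 and 10 UMIs in oligodendrocyte-like cells. They passed the filter through their OPC-like counts and could only be lower. The same holds for Kcnk3, Kcnc1, Kcnh8 and Kcnk10, with 3, 5, 6 and 6 UMIs in oligodendrocyte-like cells. Of 20 partner genes tested, 8 were higher and 12 lower. Hcn2, a hyperpolarization-activated cation channel, was at 323 ± 264 against 15.5 ± 6.95 CPM (log2 fold change 4.34 ± 0.15, adjusted p = 7.1e-14), and Slc12a2, a sodium, potassium and chloride cotransporter, was at 337 ± 100.4 against 44.9 ± 12.2 CPM (2.92 ± 0.10, adjusted p = 2.7e-18).

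**Figure D4:**
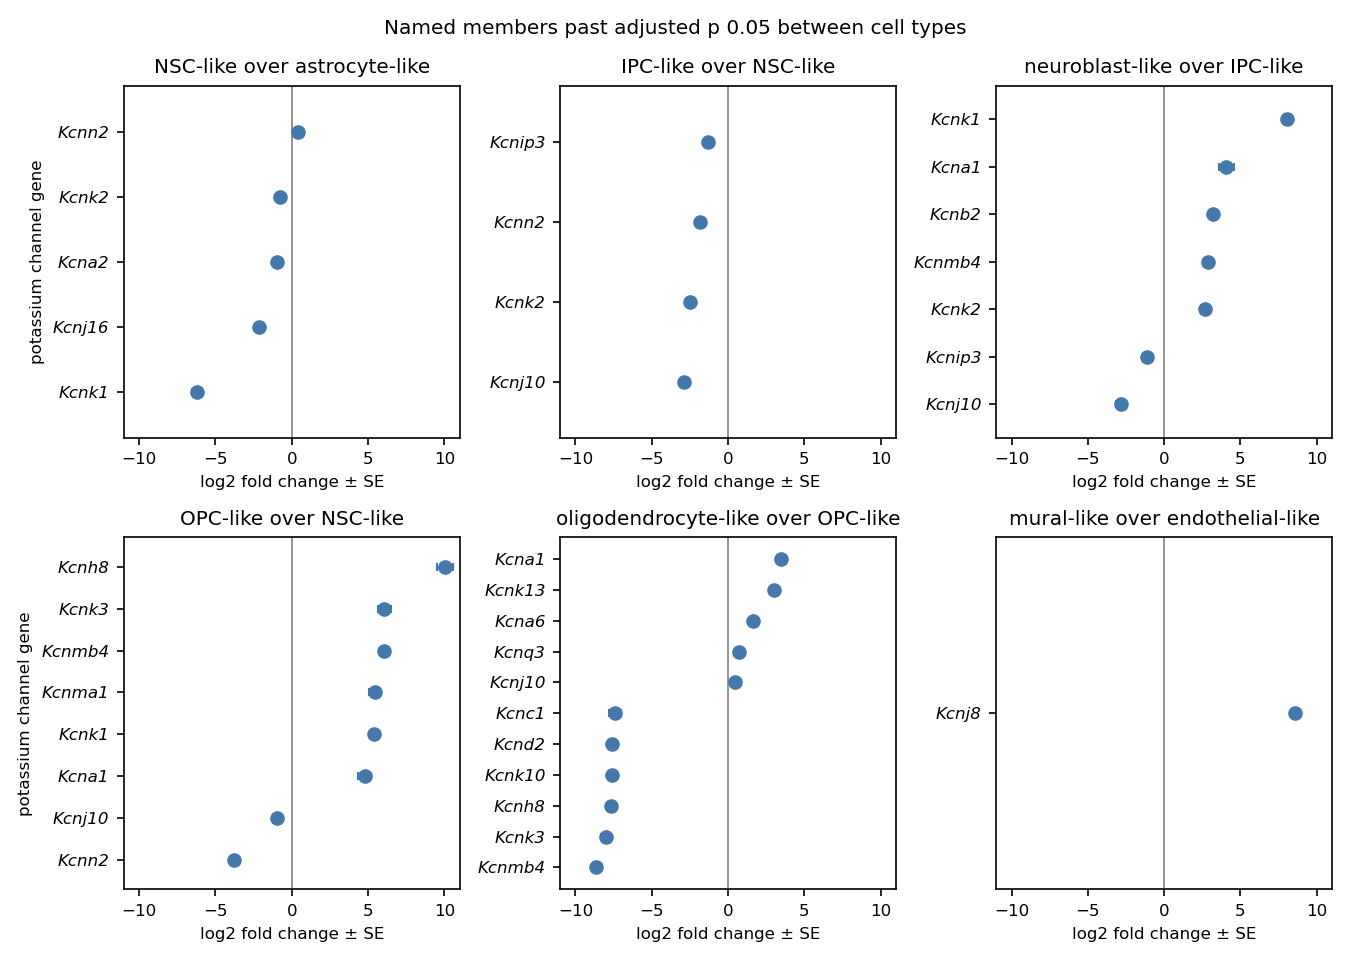
Log2 fold changes (edgeR) ± SE, derived from the F statistic, of subunits described here past an adjusted p of 0.05 in each of the 6 cell-type comparisons. They come from the up to 6 per direction with the largest absolute log2 fold change, so that other subunits past the threshold are left out. Values right of 0 are higher in the cell type named first. Kcnk1 lies at -6.24 in NSC-like over astrocyte-like cells and at 8.06 in neuroblast-like over IPC-like cells. In OPC-like over NSC-like cells the point of Kcnh8 is a fitted value against a group with 0 UMIs, and its bar is not a usable error.

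Mural-like cells were dominated by Kcnj8, the Kir6.1 pore of the vascular ATP-sensitive channel. It was at 2331 CPM at 1 month, at 1436, 1785 and 1080 CPM in the 3 experiments at 2 months, and at 1598, 2186 and 1818 CPM in the 3 experiments at 6 months. All 7 values lay far above those of the other cell types, in which the mean of Kcnj8 was at most 2.51 CPM, that of endothelial-like cells. The log2 fold change of mural-like over endothelial-like cells was 8.59 ± 0.26 (adjusted p = 2.8e-29). Abcc9, the gene next to Kcnj8 and its regulatory partner, was at 593 ± 216 CPM (311 to 851) and had 3 UMIs in endothelial-like cells, a ratio over pooled UMIs of 215 with a 95% counting interval from 73.3 to 1042, the ratio of the means over experiments being 326 (adjusted p = 2.4e-25). After Kcnj8 came Kcne4, an inhibitory subunit of voltage-gated channels, at 113 ± 70.3 CPM (55.3 to 231) and Kcnj12, the Kir2.2 inward rectifier, at 99.1 ± 40.4 CPM (41.9 to 164), whose ranges overlapped.

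Kcnj8 was the single subunit that passed the filter on low counts between mural-like and endothelial-like cells, and 30.2% of all genes tested were higher and 26.2% lower in mural-like cells (56.4% in either direction). With 4 UMIs in endothelial-like cells, Kcnj8 passed through its mural-like counts and could only be higher. In endothelial-like cells no subunit reached 10 CPM, Kcnj2, the Kir2.1 inward rectifier, being highest at 9.48 ± 10.7 CPM with 11 UMIs. Of 8 partner genes tested, 6 were higher and 2 lower in mural-like cells. Fxyd1 was higher, at 327 ± 124 against 16 ± 19.4 CPM (log2 fold change 3.94 ± 0.26, adjusted p = 2.7e-17).

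The mural-like cells were not uniform. In a split made after the levels had been seen, 61 cells held all 3 of the smooth muscle transcripts Acta2, Tagln and Myl9, and 798 held none or 1. Of the 61 cells, 49 lay in the 4 experiments with at least 10 of them. Kcnj8 was at 164 ± 140 CPM in the former (55.2 to 368, 33 UMIs) and at 1970 ± 522 CPM in the latter (1284 to 2821, 7 experiments), and Abcc9 was at 95.2 ± 112 and 670.3 ± 233 CPM. Neither gene's ranges overlapped. Kcnk3 was at 160 ± 114 against 50.4 ± 38.5 CPM and Kcnmb1, the smooth muscle beta subunit of the BK channel, at 96.0 ± 68.3 against 39.7 ± 16.4 CPM, with overlapping ranges and 28 and 15 UMIs in the smaller set. These values carry no test. In microglia-like cells, which 2 experiments carried, Kcnk13 led at 114 and 130 CPM, Kcnk12, its relative, was at 56.6 and 16.2 CPM, and Kcnk6, the TWIK-2 channel, was at 30.5 and 32.5 CPM. The first value of each came from 651 cells at 2 months, the second from only 30 cells at 6 months. Over both experiments the 3 genes had 243, 115 and 65 UMIs, so the second values rest on few molecules.

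The comparison between ages asks whether the channels of a cell type change as mice grow older. In NSC-like cells 10 of 92 subunits were tested between 6 and 2 months, of which 1 was higher and 1 lower at 6 months, where 5.43% of all genes tested were higher and 4.21% lower (9.64% in either direction). Kcnj10 was at 348, 224 and 266 CPM at 6 months and at 201, 125 and 156 CPM at 2 months, without overlap (log2 fold change 0.71 ± 0.22, adjusted p = 0.017), and it was at 203 CPM in the experiment at 1 month. Kcnn2 was at 146, 158 and 192 CPM at 6 months and at 355, 223 and 225 CPM at 2 months (log2 fold change -0.76 ± 0.21, adjusted p = 0.0071), and at 143 CPM at 1 month. Both calls were lost with DESeq2 (adjusted p = 0.11 and 0.1) and when single experiments were left out. For Kcnj10 the adjusted p was 0.16 without the second experiment at 2 months, 0.058 without the third and 0.2 without the first at 6 months. Kcnn2 had an adjusted p of 0.33 and a log2 fold change of -0.41 without the first experiment at 2 months, 0.073 without the first at 6 months and 0.058 without the second. Of 13 partner genes tested, 1 was higher and 2 lower, Fxyd1 being lower at 445 ± 8.68 against 726 ± 146 CPM (log2 fold change -0.69 ± 0.18, adjusted p = 0.0035), a call that was lost without the second experiment at 2 months (-0.52, adjusted p = 0.11). Fxyd6, the other lower one, was at 9.27 ± 6.09 against 78.0 ± 39.6 CPM without overlap (log2 fold change -2.72 ± 0.40, edgeR adjusted p = 3.5e-09). In the single experiment at 1 month, which shares the chemistry of 6 months, Fxyd6 was at 124 CPM, beyond the values at 2 months. Fxyd1 was at 419 CPM in that experiment, beside those at 6 months.

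In OPC-like cells 34 of 92 subunits were tested, of which 4 were higher and 0 lower at 6 months by edgeR, where 13.2% of all genes tested were higher and 11.1% lower (24.3% in either direction). An unadjusted edgeR p under 0.05 was held by 9 of the 34 subunits and by 3922 of the 10862 genes tested. Of the 4 called, 3 are described. Kcnh8 was at 45.8, 51.5 and 52.6 CPM at 6 months against 35.4, 20.5 and 21.6 CPM at 2 months (log2 fold change 0.91 ± 0.25, adjusted p = 0.0057), Kcnk10 at 45.8, 44.6 and 51.0 CPM against 29.7, 24.6 and 25.9 CPM (0.80 ± 0.24, adjusted p = 0.013) and Kcnma1 at 52.1, 33.5 and 50.3 CPM against 32.0, 24.6 and 22.7 CPM (0.70 ± 0.26, adjusted p = 0.045). None of the 3 overlapped between the ages, and at 1 month, which shares the chemistry of 6 months, they stood at 52.1, 50.7 and 36.4 CPM in the same order. Without the third experiment at 2 months all 4 calls were lost, those of these 3 with adjusted p-values of 0.11, 0.093 and 0.27. With DESeq2, Kcnh8 alone was called, Kcnk10 and Kcnma1 having adjusted p-values of 0.059 and 0.13. Kcnma1 was also lost without the second at 2 months (adjusted p = 0.098), the first at 6 months (0.08) or the third at 6 months (0.2). Of 18 partner genes tested, 3 were higher and 4 lower, Dpp6 being at 310 ± 5.57 against 139 ± 29.6 CPM (log2 fold change 1.14 ± 0.17, adjusted p = 2.2e-06). Each of these age differences is also a difference between chemistry versions.

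**Figure D5:**
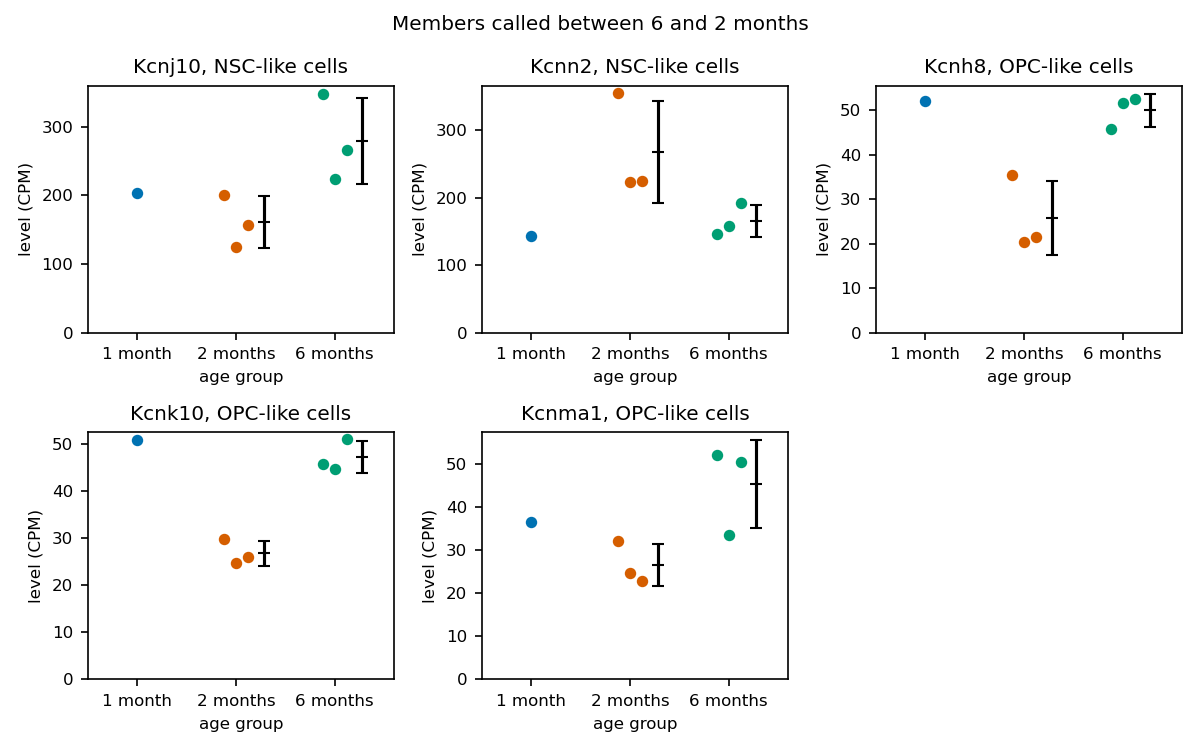
Level (CPM) in each experiment at 1, 2 and 6 months of 5 subunits called between 6 and 2 months, Kcnj10 and Kcnn2 in NSC-like and 3 subunits in OPC-like cells, with mean and SD (black) where an age has 3 experiments. The points at 2 and 6 months do not overlap, and the 1-month point lies with or beside those of 6 months for Kcnn2, Kcnh8, Kcnk10 and Kcnma1, and beside the highest of 2 months for Kcnj10.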

How the data were processed

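The authors mapped the reads of each library with Cell Ranger 3.0.2 to mm10 with reporter elements added, merged the libraries without normalization and deposited counts of UMIs per gene and barcode. Barcode suffixes gave the library, and 0 columns of samples were left unused. Cells were gated on detected marker genes by a scoring rule set after the marker counts had been seen. No doublet caller was run. The limit on markers of another lineage was mostly 2, and neighbouring types were separated by a margin of 2 markers. OPC-, newly formed OL-, oligodendrocyte-, mural-, endothelial- and microglia-like cells could hold up to 4 markers of each NSC, astrocyte, IPC and neuroblast list. Neuroblast-like cells could hold up to 4 NSC markers, and IPC-like cells had no limit on them. NSC-, astrocyte- and OPC-like cells with more than 2 cycling markers were left out. Ungated cells (4817) were not used. Cells of an experiment come from the same mice, so UMIs were summed per experiment and type (at least 10 cells) and compared with edgeR 4.0.16 (quasi-likelihood, total-UMI scaling, filterByExpr, the experiment as block between types), with Benjamini-Hochberg adjustment over all genes tested at 0.05. Between types, p-values weigh the difference within experiments against how it varies over experiments. Between ages, they weigh the difference against the spread between experiments. Each experiment pooled mice, so the spread between animals was not measured. edgeR gives no SE for these tests, so each SE is the absolute log2 fold change divided by the square root of its F statistic. Comparisons that share the NSC-like or OPC-like sums are not independent. A gene nearly absent from 1 type passes the filter through the other type alone and can then differ in 1 direction only. Alternatives were TMM, DESeq2 1.42.0, other filters, a stricter gate and left-out experiments. Named genes were the 3 highest per type, up to 6 subunits and 4 partner genes per direction past the threshold, and 10 subunits fixed by name. Subunits, lists and rules were chosen with earlier results of these data known. On simulated counts with 200 changed genes (log2 change 2), 99.5% were recovered between NSC-like and astrocyte-like cells over 5972 genes, and 69.5% between ages in NSC-like cells over 8103 genes. False calls were 2.45% and 3.47% of all calls, and 5.68% between ages in OPC-like cells. The simulated spread was set by hand and not estimated from these data. The subunits called between ages had smaller log2 fold changes, for which recovery was not simulated. Intervals and floors cover counting error only. Positions are from GENCODE M21. Python 3.11.15 and R 4.3.3 were used. Some genes and sequences are not reported here.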

Additional observations from a re-analysis of the deposited data

Results flagged for a closer look

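Of 27 levels of leading subunits tested for a single experiment standing apart, 3 were marked by Dixon's test at 95%, where chance marks about 1 in 20. Kcnn2 in NSC-like cells was at 355 CPM in the first experiment at 2 months, with the next highest at 225 CPM. Kcnj10 in IPC-like cells was at 11.1 CPM in the third experiment at 2 months, from 5 UMIs, with the next lowest at 28.4 CPM. Kcnj10 in newly formed OL-like cells was at 136 CPM in the first experiment at 2 months, with the other 3 at up to 83.5 CPM. For Kcnn2 all 3 experiments at 6 months lay below those at 2 months in NSC-like cells (log2 fold change -0.76, adjusted p = 0.0071 by edgeR, lost with DESeq2 and without single experiments) and above them in OPC-like cells, where the test was not passed (0.42, adjusted p = 0.43). The difference between the cell types was not tested.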

How the results depend on the processing

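Counts of called subunits stayed within 1.5 times under 96 of 118 alternatives. Without a filter on low counts they were 19 (NSC-like against astrocyte-like), 22 (IPC-like against NSC-like), 37 (neuroblast-like against IPC-like), 44 (OPC-like against NSC-like), 56 (oligodendrocyte-like against OPC-like) and 10 (mural-like against endothelial-like), and with genes required in 20% of cells they were 7, 13, 17 and 2 in the last 4 of these. These filters change how many subunits are tested. The share of all genes called under them is not given, so these counts cannot be read as particular to the subunits. Without a filter, more genes nearly absent from 1 type enter, which can differ in 1 direction only. With DESeq2, 0 subunits were called between ages in NSC-like cells, against 2 by edgeR, and 1 in OPC-like cells. It called 316 of all 8103 genes tested in NSC-like cells and 1825 of 10862 in OPC-like cells. In NSC-like cells 3 subunits had an unadjusted p under 0.05 with DESeq2, and 3 with edgeR. By edgeR 1788 of the 8103 genes had such a p, and that share is not given for DESeq2. With an experiment left out, 5 to 7, 5 to 8, 13 to 15, 20 to 20, 27 to 34 and 1 to 3 subunits were called between cell types in the same order, 0 to 2 between ages in NSC-like cells and 0 to 5 in OPC-like cells. In mural-like cells the count was 2 without the second or the third experiment at 2 months and 3 without the first at 6 months. With no replicate block, the paired comparisons gave 4, 5, 15, 20, 31 and 1 subunits. For left-out experiments and for no block, too, the share of all genes called is not given.

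With TMM scaling the median of all genes moved by -0.12 (NSC-like against astrocyte-like), -0.14 (IPC-like against NSC-like), -0.29 (OPC-like against NSC-like) and 0.64 (oligodendrocyte-like against OPC-like). The share of calls that were higher went from 63.3% to 50.3%, from 57.4% to 49.4%, from 74.9% to 55.1% and from 20% to 48.8% in the same order. No subunit named by the rule changed direction between cell types under the alternatives run. Between ages, values that had not passed the test did. With an experiment left out, Kcnk2 ranged from -0.46 to 0.12 in NSC-like cells, and in OPC-like cells Kcna1 ranged from -0.15 to 0.24, Kcnd2 from -0.062 to 0.11, Kcnj10 from -0.10 to 0.24, Kcnj16 from -0.175 to 0.016 and Kcnk2 from -0.135 to 0.032. Kcnd2 in OPC-like cells was at -0.0009 with DESeq2 and at -0.026 under the stricter gate. The cause was not tested. As means over cells, Kcnk1 in neuroblast-like cells was 217 CPM and Kcnk6 in microglia-like cells 28.7 CPM.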
